A study of Mus musculus with 8 samples.

Results

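The Egr zinc finger factors, their Nab corepressors and the Nr4a nuclear receptors were followed in mouse splenic T cells before and during stimulation through the T cell receptor. The members were taken by name as Egr1, Egr2, Egr3, Nab1, Nab2, Nr4a1, Nr4a2 and Nr4a3, and every probe set annotated to 1 of them alone was used. These 8 genes had 12 of the 22690 probe sets of the array, which covers 12393 genes, and 11 of the 12 passed the filter on low signal. The RNA came from spleen cells of C57Bl/6 mice enriched for T cells with a magnetic pan-T cell kit. Gfi1-knockout T cells were taken untreated (0 h) and after 4, 8 and 24 h in culture with antibodies against CD3, a part of the T cell receptor, and CD28, its costimulatory partner, at 2 µg/ml. Wild-type T cells were taken at the same 4 times. Each genotype and time had 1 Affymetrix MOE430A_2.0 array, 8 in all, and the titles carry a single source number per genotype. The sources used here do not state the age or sex of the mice, how many were pooled or how the Gfi1 allele was made. No array holds cells kept in culture without antibody, so the antibodies and the time in culture cannot be told apart in a change from 0 h.

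In the RefSeq annotation of GRCm38.p6, Egr2 lies on chromosome 10 (67534469 to 67542188), Egr3 on chromosome 14 (70077317 to 70082613) and Egr1 on chromosome 18 (34861207 to 34864956). Nab1 lies on chromosome 1 (52455849 to 52500712) and Nab2 on chromosome 10 (127660918 to 127666703). Nr4a1 lies on chromosome 15 (101253902 to 101274795), Nr4a2 on chromosome 2 (57106830 to 57124003) and Nr4a3 on chromosome 4 (48045078 to 48086447).

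As background, the Egr and Nr4a genes are immediate early genes, whose transcription starts soon after the T cell receptor is engaged and needs no new protein. Ras and ERK signalling acts on them through SRF and its Elk partners at CArG boxes, and calcium and calcineurin act through NFAT and, for the Nr4a genes, through MEF2 factors and the repressor HDAC7. Egr2 and Egr3 are known in T cells for restraining activation, Nab1 and Nab2 bind Egr proteins and repress their targets, and the Nr4a receptors are known for roles in thymocyte deletion, regulatory T cells and T cell dysfunction.

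The promoters of Egr2 and of the 3 Nr4a genes are shown because Egr2, Nr4a1 and Nr4a2 are the members called for stimulation below, and Nr4a3 is the member whose peak time differed between the genotypes. Windows of 250 bases before to 50 bases after each transcription start were read from RefSeq (GRCm38.p6) for 6 of the 8 members. No window of Egr1 or Egr3 was searched, which does not mean that RefSeq lacks an entry for them. Sequences are written 5′ to 3′ on the strand of the gene, and capitals mark every match, on either strand, to the motifs spelled out after them. Egr2 has 5 windows, of which 3 overlap, and 1 of those 3 is shown. It was picked as the first of the Egr2 windows with the most motif matches. The Egr2 window that starts at 67535249 held none of the motifs, and that at 67537316 held a CArG box and no TGACG.
Egr2, chr10:67537619-67537918, plus strand: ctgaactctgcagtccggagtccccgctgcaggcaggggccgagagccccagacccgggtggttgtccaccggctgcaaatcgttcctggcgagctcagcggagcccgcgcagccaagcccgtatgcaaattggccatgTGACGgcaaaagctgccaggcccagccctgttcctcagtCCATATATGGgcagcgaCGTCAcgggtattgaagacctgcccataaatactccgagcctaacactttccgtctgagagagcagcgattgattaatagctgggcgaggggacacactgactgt
Nr4a1, chr15:101266596-101266895, plus strand: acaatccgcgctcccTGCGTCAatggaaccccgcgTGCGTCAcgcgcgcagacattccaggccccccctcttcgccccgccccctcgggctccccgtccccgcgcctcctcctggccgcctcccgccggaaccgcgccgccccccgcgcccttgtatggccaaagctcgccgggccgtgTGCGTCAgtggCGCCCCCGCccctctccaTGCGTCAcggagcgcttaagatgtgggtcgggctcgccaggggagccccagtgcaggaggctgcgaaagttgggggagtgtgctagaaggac
Nr4a2, chr2:57123954-57124253, minus strand: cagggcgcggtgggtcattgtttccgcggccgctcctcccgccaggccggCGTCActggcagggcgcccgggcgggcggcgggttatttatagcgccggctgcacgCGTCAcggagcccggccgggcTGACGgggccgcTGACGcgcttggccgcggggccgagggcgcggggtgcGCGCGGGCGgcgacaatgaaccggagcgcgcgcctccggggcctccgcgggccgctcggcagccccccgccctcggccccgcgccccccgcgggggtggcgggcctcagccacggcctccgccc
Nr4a3, chr4:48045055-48045354, plus strand: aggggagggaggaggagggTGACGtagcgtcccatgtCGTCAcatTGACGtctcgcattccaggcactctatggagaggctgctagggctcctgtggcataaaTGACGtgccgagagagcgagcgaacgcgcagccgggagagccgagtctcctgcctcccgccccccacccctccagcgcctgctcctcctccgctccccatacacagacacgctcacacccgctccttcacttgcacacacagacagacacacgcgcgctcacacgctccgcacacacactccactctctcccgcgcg

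The core of the cyclic AMP response element, TGACG, was searched with the full element TGACGTCA, the AP-1-like element TGCGTCA described in the Nr4a1 promoter, the Egr site GCGNGGGCG, the Nr4a monomer site AAAGGTCA and the CArG box. TGACG is held by 20.8% of all 32851 promoter windows in the table, so it is common. It occurred 4 times in the Nr4a1, Nr4a2 and Nr4a3 windows each, and 2 times in the Egr2 window shown. In Nr4a1 all 4 matches lie inside the 4 copies of TGCGTCA, which start 235, 215, 71 and 42 bases before the start site. TGCGTCA is held by 2.12% of all windows, and among the members it was otherwise found 1 time, in Nab1. In Nr4a2 the core elements start 200, 144, 123 and 111 bases before the start site, and in Nr4a3 231, 213, 205 and 147 bases before it. The Egr2 window shown holds a CArG box, 72 bases before the start site, between core elements at 111 and 55 bases. A CArG box is held by 1.63% of all windows, which were not picked by their matches. The Egr site, held by 5.55% of all windows, occurred 1 time in Nr4a1, 60 bases before the start site, 1 time in Nr4a2, 74 bases before it, and 3 times in Nab1. The full cyclic AMP response element (1.79% of all windows) and the Nr4a site (1.51%) had no match in any of the 10 member windows, and the Nab2 window held none of the motifs. A match describes these letters only and is not evidence of binding.

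Signals are MAS5 intensities as deposited, scaled alike on all arrays. A floor of 141.88 was set under them, and below it a probe set is called at the floor. Over the 8 arrays 56.5% to 61.5% of probe sets were above it, and the 3′ to 5′ signal ratio of Gapdh was 0.725 to 0.939, that of beta-actin 1.11 to 1.28. Gfi1 itself gave 2316, 5979, 6459 and 9885 at 0, 4, 8 and 24 h in the knockout-labelled arrays, against 882, 6359, 5259 and 3966 in the wild-type-labelled ones. It is thus lower under the knockout label only at 4 h, and the sources used here do not say whether the probe set lies outside the deleted part. The genotypes are therefore named below as the labels have them. The T cell markers were all above the floor on at least 2 arrays (11 of 11 on the array). The knockout-labelled arrays held less T cell signal at 0, 4 and 8 h and more granulocyte and monocyte signal at all 4 times, with values given beside the genotype differences.

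Egr2, Nr4a1 and Nr4a2 rose during stimulation, and they were the members with a change past the test. At 4 h Egr2 was 22.5-fold above 0 h in knockout-labelled and 24.3-fold in wild-type-labelled cells, Nr4a1 14.0-fold in knockout-labelled and 12.7-fold in wild-type-labelled cells, and Nr4a2 14.2-fold in knockout-labelled and 22.7-fold in wild-type-labelled cells. All 3 were also called at 8 h, and Egr2 at 24 h. Egr1, Nab2 and Nr4a3 were also highest at 4 h in wild-type-labelled cells but did not pass, and Nab1 moved little. The test was limma across all 15062 tested probe sets, on log2 signals with time and genotype in the model, and a call needed an adjusted p under 0.05 and at least 2-fold. It sets the change that both genotypes share against the difference between them in these samples, and it measures no spread between animals or cultures of a genotype.

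Egr2 gave the smallest p-values among the members. Its signal was 246, 5534, 2616 and 1133 at 0, 4, 8 and 24 h in knockout-labelled cells, against 668, 16224, 7253 and 4394 in wild-type-labelled cells. The 2 arrays of 0 h are thus the lowest of the 8 and the 2 of 4 h include the highest. The wild-type-labelled array is the higher at each time. The log2 change was 4.55 ± 0.23 (SE) at 4 h with an adjusted p of 0.00107 in limma, 3.42 at 8 h (adjusted p 0.00412) and 2.46 at 24 h (adjusted p 0.00904). From 4 h to 24 h Egr2 fell by 2.09 on the log2 scale (limma, adjusted p 0.0493), to 20.5% of the 4 h signal in knockout-labelled and 27.1% in wild-type-labelled cells. A second Egr2 probe set had 248, 2566, 1471 and 355 in knockout-labelled cells, against 294, 7346, 4876 and 2531 in wild-type-labelled cells. It passed at 4 h (log2 change 4.01, adjusted p 0.0285 in limma) and at 8 h (3.31, adjusted p 0.0381) and not at 24 h (1.81, adjusted p 0.127). The probe sets part at 24 h in knockout-labelled cells, where the second was 1.43-fold above 0 h and the first 4.599-fold. Over the 8 arrays their log2 signals had r = 0.97.

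Nr4a1, also called Nur77, is widely used as a reporter of T cell receptor signalling. Its signal was 1056.5, 14825, 6935 and 3612 at 0, 4, 8 and 24 h in knockout-labelled cells, against 2569.9, 32700.1, 16756 and 3153 in wild-type-labelled cells. The log2 change was 3.74 ± 0.39 (SE) at 4 h (limma, adjusted p 0.0156) and 2.71 at 8 h (adjusted p 0.0262), and at 24 h it did not pass (1.03, adjusted p 0.189). At 8 h the induction was 6.56-fold and 6.52-fold in knockout-labelled and wild-type-labelled cells. The genotypes thus differed in level up to 8 h but hardly in the fold over their own 0 h signal. At 24 h Nr4a1 stood 3.42-fold above 0 h in knockout-labelled and 1.23-fold in wild-type-labelled cells.

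Nr4a2 (Nurr1) also peaked at 4 h in both genotypes. It had 146, 2071, 807 and 849.7 at 0, 4, 8 and 24 h in knockout-labelled cells, against 245.5, 5565, 2556 and 719 in wild-type-labelled cells. The log2 change was 4.16 ± 0.48 (SE) at 4 h (limma, adjusted p 0.0175), 2.92 at 8 h (adjusted p 0.0363) and 2.05 at 24 h, which did not pass (adjusted p 0.0702). The second Nr4a2 probe set gave 228, 1749.5, 612 and 839 in knockout-labelled cells, against 312, 5666, 1705 and 473 in wild-type-labelled cells. It did not pass at 4 h (log2 change 3.56, adjusted p 0.0536 in limma) or at 8 h (1.94, adjusted p 0.15), so the calls of Nr4a2 rest on the brighter probe set. With the floor at the 60th percentile Nr4a2 was called at neither time (limma, adjusted p 0.094 at 4 h and 0.181 at 8 h), and by the median of both probe sets it was not called at 8 h (adjusted p 0.0834). Its r with the first was 0.97 over the 8 arrays.

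**Figure D1:**
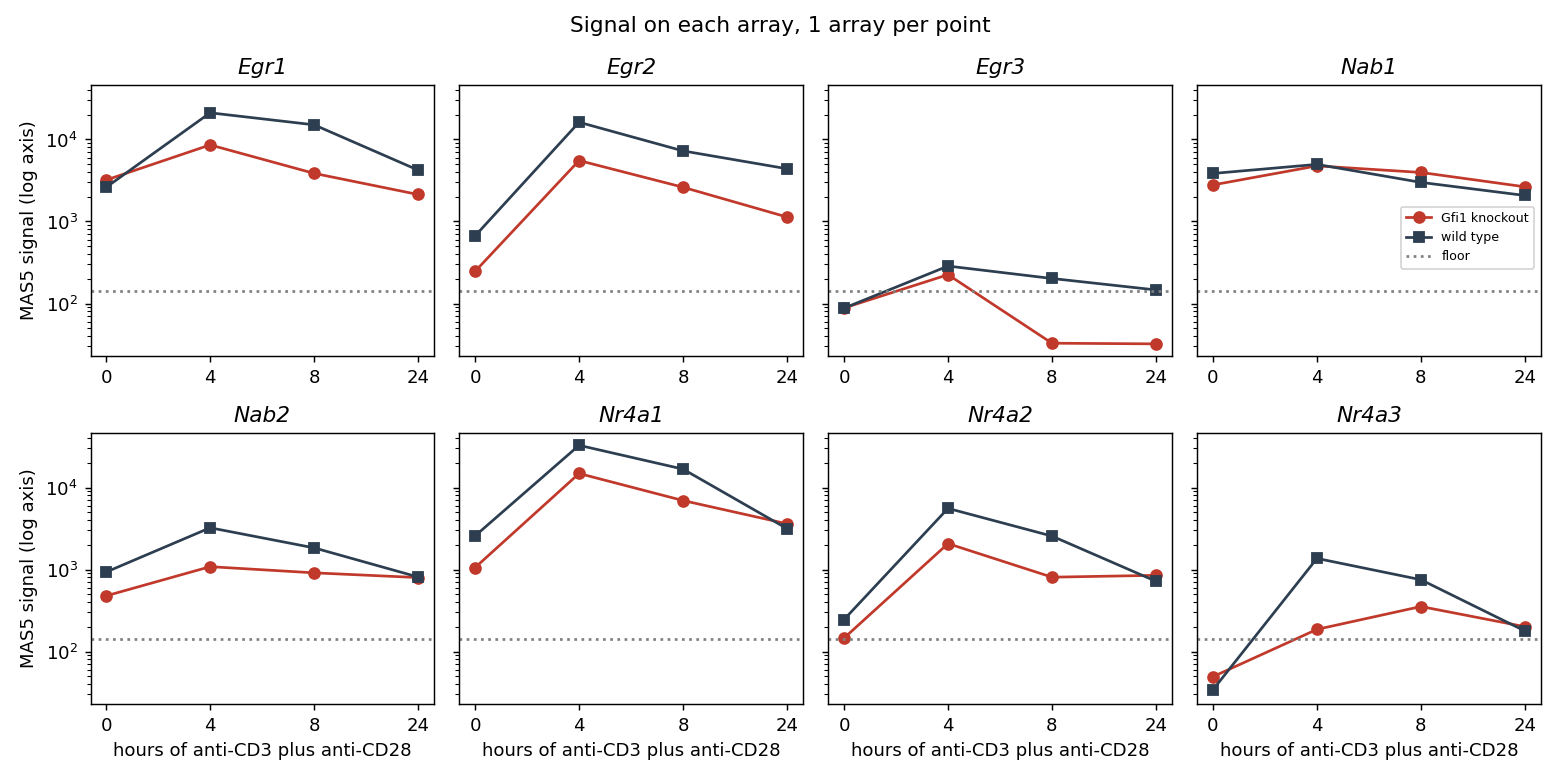
MAS5 signal (log axis) of each member's brightest probe set against hours of stimulation (equally spaced), with 1 point per array, knockout in circles, wild type in squares, and the floor of 141.88 dotted. Egr2, Nr4a1 and Nr4a2 peak at 4 h in both genotypes, Nr4a3 peaks at 8 h in the knockout-labelled arrays and at 4 h in the wild-type-labelled ones, and Egr3 lies at or near the floor throughout.

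Read against the background, 3 of the 8 members were called higher at 4 h, where 0.631% of all tested probe sets were, and 3 at 8 h against 0.956%. At 24 h 1 was called, Egr2, against 1.24% of probe sets. From 4 h to 24 h 1 was called lower, Egr2 again, against 0.0598%. Counted by gene, as the members are, 0.816%, 1.19% and 1.5% were called higher at 4, 8 and 24 h. By gene 0.0946% were called lower at 24 h than at 4 h. No probe set was called lower at 8 h than at 4 h (0.0%). Of the 15062 tested, 459 had an unadjusted limma p under 0.05 in this comparison, in either direction. That is a smaller share than the 0.05 such a limit would give with no change at all. The median log2 change at 4 h was 2.03 over the members and -0.10 over all 8457 tested genes. The calls rest on few arrays. Without the knockout-labelled or the wild-type-labelled array of 0 h or of 4 h, 0 members passed at 4 h, and without either array of 8 h only Egr2 did. At 8 h 0 members passed without any 1 of the arrays of 0, 4 and 8 h, and likewise for Egr2 at 24 h. Without the wild-type-labelled 24 h array 3 members passed at 24 h and 2 were lower at 24 h than at 4 h, and without any other array 0 were. Log2 changes of Egr2 at 4 h stayed between 4.44 and 4.66 in these fits, in which a lone array is assumed to vary like the others.

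Egr1, a zinc finger factor induced in most cell types, was well above the floor before stimulation. Its signal was 3203, 8584, 3862 and 2133 at 0, 4, 8 and 24 h in knockout-labelled cells, against 2611, 21139, 15086 and 4230.4 in wild-type-labelled cells. At 4 h it stood 2.68-fold above 0 h in knockout-labelled and 8.10-fold in wild-type-labelled cells, and the shared log2 change of 2.22 ± 0.48 (SE) did not pass (limma, adjusted p 0.109). Egr3 was above the floor on 4 of 8 arrays, with 88.2, 225, 32.8 and 32.2 in knockout-labelled cells, against 87.8, 286, 202 and 146 in wild-type-labelled cells. Both 0 h arrays lay under the floor, so that the 4 h signal was at least 1.58-fold higher in knockout-labelled and at least 2.02-fold higher in wild-type-labelled cells, and the floor removes spread at 0 h. It was not called (log2 change 0.84, adjusted p 0.172 in limma).

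The corepressors differed from each other. Nab2 had 478, 1083, 911 and 798 at 0, 4, 8 and 24 h in knockout-labelled cells, against 932, 3229.9, 1837 and 811 in wild-type-labelled cells. Its 4 h change of 1.49 ± 0.39 (SE) on the log2 scale did not pass (limma, adjusted p 0.17). Nab1 had 2790.2, 4763, 3962 and 2647.5 in knockout-labelled cells, against 3850.4, 4969, 2998 and 2076 in wild-type-labelled cells. Its 4 h change was 0.57 ± 0.27 (SE; limma, adjusted p 0.426), and its second probe set gave 0.52 (adjusted p 0.497). Nab1 thus ran only from 2076 to 4969 across all 8 arrays, and both of its probe sets were highest at 4 h.

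Nr4a3 (Nor1) was at the floor at 0 h in both genotypes. Its signal was 49.4, 186, 354 and 201 at 0, 4, 8 and 24 h in knockout-labelled cells, against 34.2, 1367, 751 and 178 in wild-type-labelled cells. It was the member whose peak time differed, at 8 h in knockout-labelled and at 4 h in wild-type-labelled cells. Against the floor, the 4 h signal was at least 1.31-fold higher in knockout-labelled and at least 9.63-fold higher in wild-type-labelled cells. The shared 4 h change of 1.83 ± 0.71 (SE) did not pass (limma, adjusted p 0.324). A second Nr4a3 probe set was above the floor on 1 array, that of wild-type-labelled cells at 4 h (354), and was not tested.

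**Figure D2:**
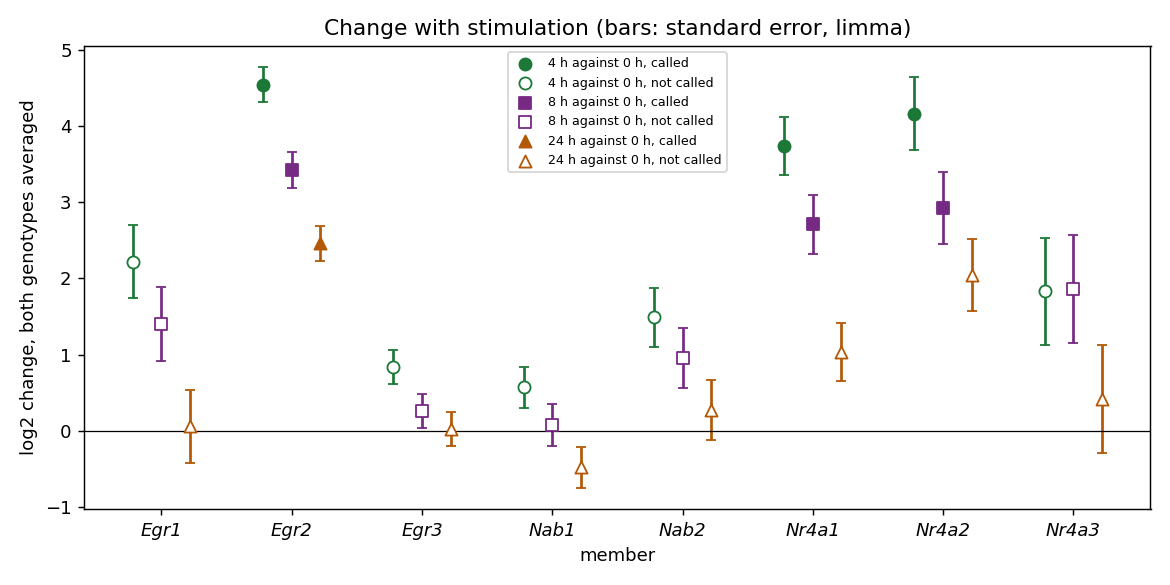
Log2 change from 0 h (vertical axis, both genotypes averaged) for each member at 4, 8 and 24 h, with standard errors from limma and filled symbols where called. Egr2, Nr4a1 and Nr4a2 are called at 4 and 8 h and Egr2 at 24 h, while the changes of Nab1 lie between 0.57 and -0.48.

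The knockout-labelled cells had lower signals of most members at 4 and 8 h. With 1 array per genotype and time there is no spread to test a genotype difference against, so differences are given by size. At 4 h 6 of the 8 members, all but Egr3 and Nab1, were at least 2-fold lower, where 6.79% of tested probe sets were. At 8 h the same 6 were, against 6.77%, with Nab2 (2.02-fold) and Nr4a3 (2.12-fold) near the limit. At 0 h Egr2 and Nr4a1 were (2 members, against 7.0%), and at 24 h Egr2 alone was (1 member, against 4.86%). Counted by gene, the shares were 6.78%, 6.59%, 6.67% and 5.1% at 0, 4, 8 and 24 h. Egr2 was the 1 member at least 2-fold lower at all 4 times, as 0.153% of probe sets were. No member was at least 2-fold higher at 0, 4, 8 or 24 h, where 7.48%, 10.3%, 10.4% and 8.36% of probe sets were. The median difference over the members was -0.61, -1.36, -1.18 and 0.08 on the log2 scale at 0, 4, 8 and 24 h, where that over all tested genes lay between -0.08 and 0.00.

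Egr2 was 2.71-fold lower in knockout-labelled cells at 0 h, 2.93-fold at 4 h, 2.77-fold at 8 h and 3.88-fold at 24 h. The mean difference was -1.60 ± 0.24 on the log2 scale (SD over the 4 times, which are not replicates). Its second probe set was 1.19-fold lower at 0 h and 7.13-fold lower at 24 h, so the 2 probe sets differ on the size at these times. Nr4a1 was 2.43-fold, 2.21-fold and 2.42-fold lower at 0, 4 and 8 h, and at 24 h it was 1.15-fold higher. Nr4a2 was 2.69-fold lower at 4 h and 3.17-fold lower at 8 h, and 1.18-fold higher at 24 h. Nab2 was 2.98-fold lower at 4 h and 1.02-fold lower at 24 h. By their brightest probe sets Nr4a1, Nr4a2, Nr4a3 and Nab2 thus came within 1.18-fold of the wild-type-labelled level at 24 h, where the second Nr4a2 probe set was 1.77-fold higher, while Egr1 was 1.98-fold and Egr2 3.88-fold lower there. With each array divided by its own median, Nr4a1, Nr4a2 and Nr4a3 were lower at 24 h, by -0.08, -0.03 and -0.10 on the log2 scale, so the sign at 24 h is not settled for them. Nab1 lay within 1.38-fold at every time by its brighter probe set.

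Markers of T cells and of other cell types also differed between the genotypes. The median log2 difference of the 11 T cell markers on the array, knockout minus wild type, was -1.79, -1.98, -1.64 and -0.22 at 0, 4, 8 and 24 h, and 9, 10, 10 and 1 of them were at least 2-fold lower. That of the 10 granulocyte markers was 2.87, 3.67, 4.18 and 1.33, and 7, 7, 7 and 6 of them were at least 2-fold higher. That of the 9 monocyte and macrophage markers was 1.35, 3.78, 3.91 and 2.91, and 5, 7, 8 and 8 were. Not all went this way. At 0 h the granule genes Ltf, Camp and Ngp had 152, 244 and 580 in knockout-labelled cells, against 230, 358 and 842 in wild-type-labelled cells. The macrophage marker Adgre1 had 289.5 in knockout-labelled cells, against 455 in wild-type-labelled cells. The T cell marker Thy1 had 3740, 3567 and 10530 at 4, 8 and 24 h in knockout-labelled cells, against 3286, 3060 and 3476 in wild-type-labelled cells. It was the 1 T cell marker at least 2-fold higher at 24 h. Summed T cell marker signal ran from 20668 to 57220.3 in knockout-labelled arrays, against 57097 to 83652 in wild-type-labelled ones. Summed granulocyte signal ran from 4815 to 157861 in knockout-labelled arrays, against 739.8 to 14966 in wild-type-labelled ones. Summed monocyte signal ran from 15260 to 52696 in knockout-labelled arrays, against 1238 to 6874 in wild-type-labelled ones. Other cell types gave smaller sums. B cell marker signal (5 on the array) summed to 632 to 3490.5 in knockout-labelled arrays, against 885 to 4494 in wild-type-labelled ones, with Pax5 at the floor on all 8 arrays. Red cell marker signal (3 on the array) summed to 338 to 5375 in knockout-labelled arrays, against 436 to 3843 in wild-type-labelled ones, with Alas2 at the floor on all 8. Natural killer cell marker signal (2 on the array) summed to 18.8 to 70.7 in knockout-labelled arrays, against 164.5 to 414 in wild-type-labelled ones, with Ncr1 at the floor on all 8. In bulk RNA, fewer T cells and less RNA per T cell cannot be told apart. Taken relative to the T cell marker median, an alternative chosen after seeing the data, 0 members were at least 2-fold lower at 0, 4 or 8 h and 1 was at 24 h. Egr2 then differed by 0.35, 0.43 and 0.17 at 0, 4 and 8 h and by -1.73 at 24 h, and its second probe set by -2.61 at 24 h. On the same scale Nr4a3 differed by -0.89 at 4 h, Nr4a1 by 0.84 at 4 h and Egr1 by -0.77 at 24 h. Some members were more than 2-fold higher on it, Egr1 by 2.08 at 0 h and Nab1 by 1.32, 1.92 and 2.04 at 0, 4 and 8 h. Nr4a2 was higher by 1.04 at 0 h and Egr3, near the floor, by 1.63 at 4 h. The part of cell makeup in the differences of the members was not tested beyond these values.

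**Figure D3:**
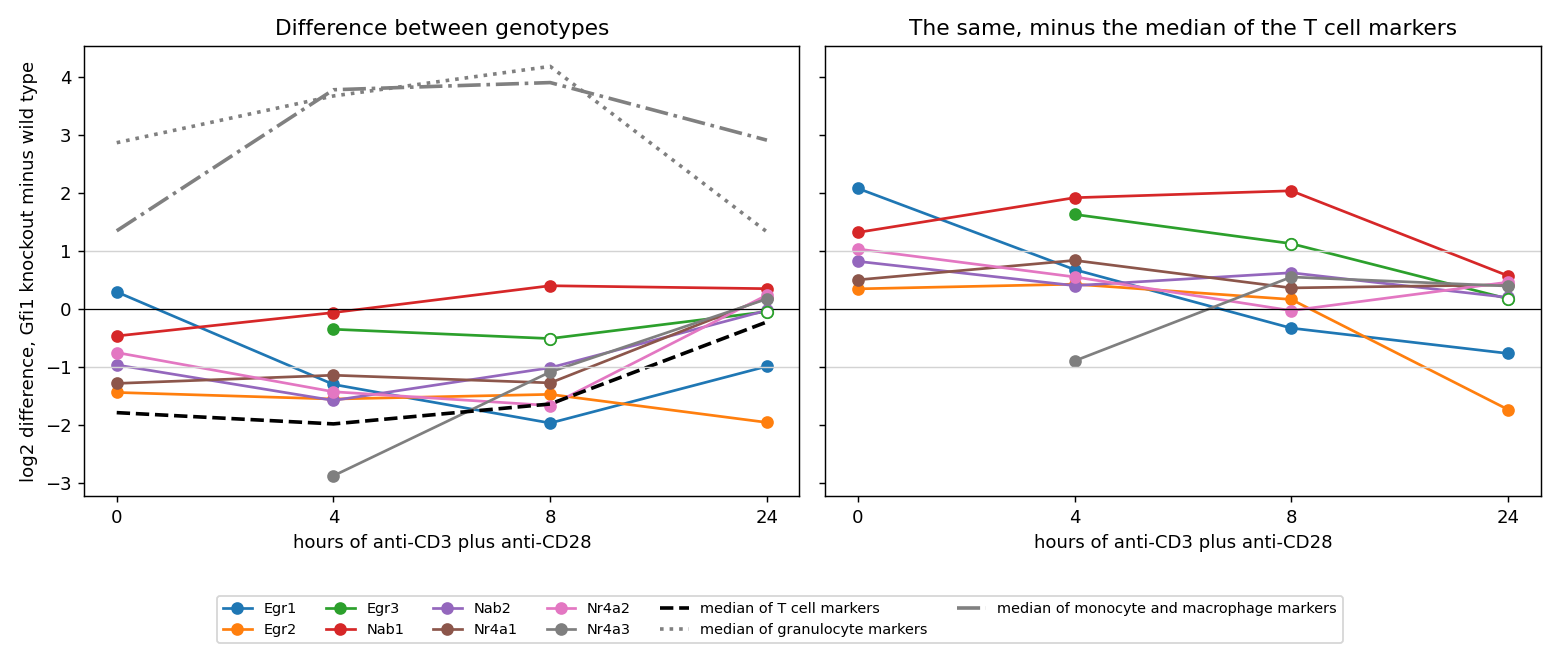
Log2 difference between genotypes (knockout minus wild type) of each member against hours of stimulation, on the left as measured, with the median differences of T cell, granulocyte and monocyte markers, and on the right after subtracting the T cell marker median. Points with both arrays at the floor are left out and open points have 1 array at the floor. At 24 h the T cell markers differ by -0.22 and Egr2 by -1.96.

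Responses to stimulation were also set side by side, as the change in knockout-labelled minus that in wild-type-labelled cells, by size and with a limit of 4-fold. At 4 h against 0 h 1 member, Nr4a3, had a response at least 4-fold smaller in knockout-labelled cells, as 0.345% of probe sets did. It was 7.34-fold smaller, with both 0 h arrays at the floor, so this size is not a bound. At 8 h against 0 h 1 member did, Egr1 (0.677% of probe sets), which stood 1.21-fold above 0 h in knockout-labelled and 5.78-fold in wild-type-labelled cells. At 24 h against 0 h 0 members did by their brightest probe set, and the second Egr2 probe set did (6.00-fold, 2.41% of probe sets). The fold inductions of Egr2 at 4 and 8 h and of Nr4a1 at 4 and 8 h were within 1.10-fold of each other between the genotypes by the brightest probe sets. The second Egr2 probe set stood 10.4-fold above 0 h at 4 h in knockout-labelled and 25.0-fold in wild-type-labelled cells, 2.41-fold apart. At 8 h it stood 5.94-fold above 0 h in knockout-labelled and 16.6-fold in wild-type-labelled cells, 2.79-fold apart. The probe sets of Egr2 thus disagree on whether its response differs between the genotypes.

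Between 4 and 24 h the Nr4a genes, Nab2 and, by less, Nab1 kept more of their 4 h signal in knockout-labelled than in wild-type-labelled cells. At 8 h this was not so for Nr4a1, with 46.8% in knockout-labelled and 51.2% in wild-type-labelled cells. Nr4a2 then had 39.0% in knockout-labelled and 45.9% in wild-type-labelled cells by its brighter probe set. Its second probe set went the other way, with 35.0% in knockout-labelled and 30.1% in wild-type-labelled cells, so the direction at 8 h is not settled for Nr4a2. At 24 h Nr4a1 held 24.4% of its 4 h signal in knockout-labelled cells and 9.64% in wild-type-labelled cells. Nr4a2 held 41.0% in knockout-labelled and 12.9% in wild-type-labelled cells. Nab2 held 73.7% in knockout-labelled and 25.1% in wild-type-labelled cells. Nab1 held 55.6% in knockout-labelled and 41.8% in wild-type-labelled cells, and its second probe set 68.6% and 44.7%. Nr4a3 held 107.9% in knockout-labelled and 13.03% in wild-type-labelled cells, an 8.28-fold difference in response. It was the 1 member past 4-fold in that direction, as was the second Nr4a2 probe set (5.75-fold), where 2.37% of probe sets were. Egr1 held 24.9% in knockout-labelled and 20.01% in wild-type-labelled cells, and Egr2 20.5% in knockout-labelled and 27.1% in wild-type-labelled cells, so that Egr2 alone of the 7 members plotted held less in knockout-labelled cells. Over the same interval the T cell marker sum went up in knockout-labelled arrays, with 24590 at 4 h and 57220.3 at 24 h, against 81274 and 58920.5 in wild-type-labelled arrays. Whether the T cell share has a part in these declines was not tested.

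**Figure D4:**
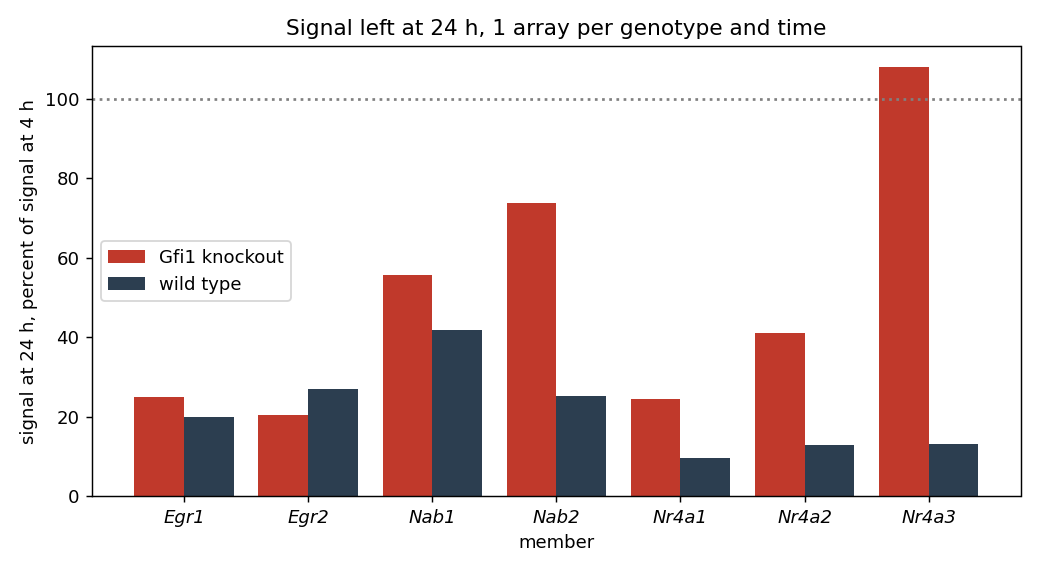
Signal at 24 h as a percent of the signal at 4 h (vertical axis, from 0), knockout left and wild type right, from 1 array each, with 100% dotted. Egr3 is left out because it is at the floor at 24 h in knockout-labelled cells. Nr4a3 stands at 107.9% in knockout-labelled and 13.03% in wild-type-labelled cells.

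Other genes of the pathway were described from lists drawn up by role. Of 17 tested genes upstream of the members (Ras and ERK signalling, SRF, MEF2, NFAT and calcineurin), 0 were called at 4 h, with a median log2 change of -0.22. Of all tested genes 0.816% were called higher and 0.615% lower at 4 h. The largest 4 h values were 0.73 for the NFAT gene Nfatc1, -0.69 for Hdac7 and -0.64 for the ERK kinase Map2k2, none past the test. At 24 h 2 of the 17 fell, where 2.48% of all tested genes did. They were Mef2d, by 1.42 (limma, adjusted p 0.0427), and the calcineurin subunit Ppp3ca, by 1.54 (adjusted p 0.0345). Both were named after their values were seen. The largest mean genotype differences in this list were those of Rasgrp1, the Ras activator of T cells (-1.55), the calcineurin subunit Ppp3cc (-1.39) and the SRF partner Elk4 (-0.98). Of 4 tested relatives and partners, Klf10, Rxra, Rxrb and Chd4, 0 were called.

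Of 12 other immediate early genes, 2 rose at 4 h, where 0.816% of all tested genes did. The median log2 change was 0.68, against -0.10 over all tested genes. The 2 that rose were the stress-induced factor Atf3 (5.07, limma adjusted p 0.0134) and Irf4, a factor of activated lymphocytes (4.64, adjusted p 0.0311). Fos, the AP-1 subunit, was 15294 at 0 h in knockout-labelled and 14366 in wild-type-labelled cells, and over both genotypes it fell by 3.39 on the log2 scale at 24 h (limma, adjusted p 0.04). In knockout-labelled cells 9 of the 12 had at least 2-fold lower signals at 4 h, with a median difference of -1.19, where 6.59% of all tested genes were and the T cell markers had a median of -1.98. At 24 h 1 was lower and 5 were higher, with a median of 0.50, where 5.1% of all tested genes were lower and 9.19% higher and the T cell markers had a median of -0.22. Ier3 had a mean difference of 1.85 and the phosphatase Dusp2 one of -1.22.

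Of 17 tested genes reported as targets of Egr2 or Egr3 in T cells, 5 rose at 4 h, where 0.816% of all tested genes did. The median log2 change was 2.04, against -0.10 over all tested genes. The 5 were, with log2 changes, Il2 (6.66, limma adjusted p 0.00107), Tnf (adjusted p 0.00107, and 3.87 at 8 h), Sema7a (4.67, adjusted p 0.0166), the cell cycle inhibitor Cdkn1a (3.64, adjusted p 0.0203) and the cytokine signalling inhibitor Socs1 (3.53, adjusted p 0.0134). Il2 and Tnf are known as genes that T cell receptor signals induce directly. Where Egr2 was at least 2-fold lower in knockout-labelled cells at every time, the median difference of this list was -0.48, -0.42, -0.49 and 0.58 at 0, 4, 8 and 24 h. The largest mean differences were those of Cdkn1a (1.51), Id3 (-1.33) and Fasl (-1.28). Of 10 tested genes linked to Nr4a factors in T cells 0 rose at 4 h, where the median was 0.44. The inhibitory receptors Pdcd1 (1.98, limma adjusted p 0.0636) and Ctla4 (1.78, adjusted p 0.369) had the largest values. At 24 h Batf, a factor of activated T cells, rose by 1.45 (limma, adjusted p 0.0234), and Klf2, which maintains quiescence, fell by 3.52 (adjusted p 0.0142). Of all tested genes 1.5% rose and 2.48% fell at 24 h. The inhibitory receptor Havcr2, also found on myeloid cells, had a mean genotype difference of 1.45 and Tox one of -1.39.

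Over the 8 arrays, log2 signals of the members were most alike for Nr4a1 and Nr4a2 (r = 0.97), followed by Egr2 and Nr4a2 (0.95), and least alike for Nab1 and Egr2 (0.36). The 8 arrays share the stimulation course, and the correlations are descriptions with no test. Among 7664 other genes, the pattern nearest to Nr4a1 was that of the NF-κB subunit Relb (r = 0.99), followed by the RNase gene Zc3h12a (0.97) and the magnesium transporter gene Slc41a1 (0.97). Nearest to Nr4a2 were the nuclear pore gene Nup98 (0.99), the activation marker Cd83 (0.98) and Tnfsf11, the ligand RANKL (0.97). Relb had 258, 2128, 1214 and 726 at 0, 4, 8 and 24 h in knockout-labelled cells, against 531, 3019, 2781 and 695 in wild-type-labelled cells, so it too came together at 24 h. Nearest to Egr2 were Rc3h2, a paralog of Roquin (0.98), Thoc1 (0.98) and Cars (0.97), nearest to Egr1 were Swap70 (0.97), Apln (0.96) and Cysrt1 (0.94), and nearest to Egr3 were Hif3a (0.98), Aff1 (0.96) and Slc41a1 (0.94). Nearest to Nab2 were Phlpp1 (0.98), Taf7 (0.97) and Zfp36l1 (0.97), and nearest to Nab1 were Tmem243 (0.97), Epb41l2 (0.93) and Plgrkt (0.93). Nearest to Nr4a3 were Kpna1 (0.98), the cytokine subunit gene Il12b (0.95) and Ddx41 (0.94).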

How the data were processed

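Total RNA of 8 samples was hybridised to Affymetrix MOE430A_2.0 arrays. The deposited values are signal intensity per probe set, made with GCOS 1.4 and MAS5 per the submitters' processing notes, and other settings are not stated. All sample columns were used. The 2% trimmed mean was 1000.4 to 1000.5 on every array, and the number of arrays limits the precision. No RNA counts exist for arrays, so no counting interval is given.

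Values under 141.88 (log2 7.15), the median over arrays of the 40th percentile, were raised to that floor, and log2 was taken. The 15062 probe sets above it on at least 2 arrays, 64 control probe sets left out, were fitted in limma 3.58.1 (R 4.3.3) with time and genotype, eBayes with a variance trend and Benjamini-Hochberg adjustment over all of them, with 3 residual degrees of freedom. Genotype differences (at least 2-fold) and response differences (at least 4-fold) are sizes without p-values. Gene names came from the platform's annotation: 20380 probe sets had 1 symbol, 691 several and 1555 none. Where a gene had several probe sets, the one of highest mean signal stood for it. Named genes are all members, up to 6 per pathway list by size of the 4 h change or mean genotype difference, and the 3 genes most like each member. Other list genes that passed the test were named after their values were seen. The members and lists were chosen with earlier results of these data known. The fit was tested on simulated data. Samples were grouped by their titles. Since no separate animals or cultures are named within a genotype, p-values measure only the spread between these samples. Alternatives were quantile and median scaling, other floors, filters and thresholds, models without genotype or variance trend, gene medians and left-out arrays.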

Additional observations from a re-analysis of the deposited data

Results flagged for a closer look

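Several members changed in opposite directions in the 2 genotypes, or differed between genotypes in opposite directions at different times. Each of these values comes from 1 array per genotype and time, and none of the differences was tested.

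From 0 to 24 h Egr1 changed by -0.59 in knockout-labelled and 0.70 in wild-type-labelled cells (log2), a difference of -1.28. From 0 to 8 h Nab1 changed by 0.51 in knockout-labelled and -0.36 in wild-type-labelled cells, a difference of 0.87. From 0 to 24 h Nab2 changed by 0.74 in knockout-labelled and -0.20 in wild-type-labelled cells, a difference of 0.94. From 4 to 8 h Nr4a3 changed by 0.93 in knockout-labelled and -0.86 in wild-type-labelled cells, a difference of 1.79. From 4 to 24 h it changed by 0.11 in knockout-labelled and -2.94 in wild-type-labelled cells, a difference of 3.05.

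The difference between genotypes (knockout minus wild type, log2) went from one side to the other over time for 5 members. For Egr1 it was 0.30 at 0 h and -1.97 at 8 h, a shift of -2.26. For Nab1 it was -0.46 at 0 h and 0.40 at 8 h, a shift of 0.87. For Nr4a1 it was -1.28 at 0 h and 0.20 at 24 h, a shift of 1.48. For Nr4a2 it was -1.66 at 8 h and 0.24 at 24 h, a shift of 1.90. For Nr4a3 it was -2.87 at 4 h and 0.17 at 24 h, a shift of 3.05. The 24 h signs of the 3 Nr4a genes turned when each array was divided by its own median (-0.08, -0.03 and -0.10 for Nr4a1, Nr4a2 and Nr4a3). T cell markers differed by a median of -1.79, -1.98, -1.64 and -0.22 at 0, 4, 8 and 24 h, and their part in these shifts was not tested.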

How the results depend on the processing

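Over the fits that left out 1 array, 0 to 3 members were called higher at 4, 8 or 24 h, 0 to 2 lower at 24 h than at 4 h and 0 lower at 8 h than at 4 h. Without the 2 arrays of 1 time, 1 to 2 members were at least 2-fold lower in knockout-labelled cells at all other times. With no replicate block (genotype left out of the model), 0 members were called at 4, 8 or 24 h, and 0 lower at 24 h than at 4 h. No filter left 1 member at 4 h, 0 at 8 h, 0 at 24 h and 0 lower at 24 h than at 4 h. The call of Egr2 as lower at 24 h than at 4 h, near the threshold, gave a count of 0 with no variance trend, quantile normalization, median scaling, the floor at the 60th percentile and gene medians (over a gene's probe sets). It gave 2, with Nr4a1, for the floor at the 20th percentile and where the floor value was added to every signal before log2. At 24 h against 0 h the median scaling gave 2 members and the 60th percentile floor 0. Nr4a2 lost its calls at 4 and 8 h with the 60th percentile floor (2 members left at each) and its 8 h call with gene medians (2 left). Median scaling, which divides each array by its own median, moved the median difference of all tested probe sets between genotypes from 0.00 to -0.20 at 24 h.

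Of the genotype counts, that at 24 h was 2 with median scaling, the 20th percentile floor or a 1.5-fold limit and 0 with a 4-fold limit. That at 0 h was 1 with the 60th percentile floor or gene medians, 3 with quantile normalization, 4 at 1.5-fold and 0 at 4-fold. The 4 h count was 5 with quantile normalization, without Nr4a1. The 8 h count was 5 with quantile normalization, the 60th percentile floor or gene medians. It was 4 where the floor value was added to every signal and 7 with the 20th percentile floor. At 4-fold the count was 1 at 4 h, 0 at 8 h and 0 at all 4 times. The count at all 4 times was 0 with the 60th percentile floor and with gene medians. Among responses, the 60th percentile floor gave 0 members smaller at 4 h and 0 larger from 4 to 24 h, the 20th percentile floor 2 smaller at 8 h, and gene medians 2 larger from 4 to 24 h. A 2-fold limit gave 2 at 4 h, 2 at 8 h and 4 from 4 to 24 h. Relative to the T cell markers, chosen after seeing the data, 0 members were at least 2-fold lower at 0, 4 or 8 h and 0 at all 4 times. Of the members at least 2-fold lower as measured, signs then turned at 0 h for Egr2 (0.35) and Nr4a1 (0.50), at 4 h for Egr1 (0.68), Egr2 (0.43), Nab2 (0.40), Nr4a1 (0.84) and Nr4a2 (0.55), and at 8 h for Egr2 (0.17), Nab2 (0.63), Nr4a1 (0.36) and Nr4a3 (0.55), since the marker median is subtracted. The causes of the other changes were not tested. Of single values for stimulation, 638 kept their side of the threshold, 71 lost their call and 6 gained one, and no called value turned its sign. Most of the single values were not called in the main fit and so had no call to lose. Signals near the floor limit Egr3 and Nr4a3.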
